A study of Mus musculus with 36 samples.

Results

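Retnla, Chil3, Arg1, Mrc1, Ccl8, Ccl17 and Ccl24 are 7 genes commonly read as signs of alternatively activated macrophages. They were listed by symbol and chosen by the higher level of Retnla in A/J lungs after NNK, so the A/J difference between NNK and untreated lungs is described here without a test, as is every comparison built on it. All 7 were measured among 19938 genes with a probe set of their own, and 6 of the 7 were among the 14953 genes tested. Ccl24 averaged 7.45 on the log2 scale over 36 arrays, under the minimum of 7.54 for testing. Ccl8 averaged 7.57, and 7.43 over the 28 arrays without the A/J NNK group, so it passed that minimum through the group in which it was high. Arg1 averaged 7.79, and 7.55 without the 3 week 3 arrays that carried most of it.

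Total RNA of whole mouse lung was hybridised to Affymetrix Mouse Gene 1.0 ST arrays. The groups were A/J and C3H mice given NNK, 100 mg/kg by injection each week for 4 weeks, and untreated A/J and C3H mice. Lungs were taken 3, 6, 9 and 12 weeks after NNK, before mature tumours had formed, and at weeks 0, 3, 6, 9 and 12 from untreated mice, with 2 arrays in each of the 18 groups. NNK is a nitrosamine of tobacco that alkylates DNA in the lung. A/J is an inbred strain prone to lung tumours, and C3H an inbred strain that is less so. The labels give no age, sex or vehicle. They leave unsaid if both arrays of a group stand for different animals, so each p-value here reflects array-to-array spread that may be purely technical.

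Macrophages exposed to the type 2 cytokines IL-4 and IL-13 signal through the receptor chain IL-4Ra to the transcription factor STAT6, and switch on a set of secreted and scavenging proteins in mice. Retnla (FIZZ1, RELM alpha) is a small secreted cysteine-rich protein that airway epithelium and macrophages make in allergic mouse lung. Chil3 (Ym1) is a chitinase-like lectin that mouse alveolar macrophages also make at rest. Arg1 splits arginine into ornithine and urea, and Mrc1 is the macrophage mannose receptor (CD206). Ccl8, Ccl17 and Ccl24 are secreted chemokines, which in mice act on Ccr8, Ccr4 and Ccr3.

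The 250 bases before the start of transcription are shown for the 3 genes whose levels were higher in A/J lungs after NNK (Retnla, Chil3, Ccl8) and for Ccl17, the gene closest to Retnla across the C3H arrays. They are RefSeq sequences of build GRCm38.p6, 5′ to 3′ along the gene, from chr16:48842359-48842608 (plus strand), chr3:106167565-106167814 (minus strand), chr11:82114935-82115184 (plus strand) and chr8:94810203-94810452 (plus strand). Capitals mark TTCNNNNGAA (the spacing STAT6 prefers), TTCNNNGAA (the general STAT spacing) and TTGCNNAA (a C/EBP-type word), each searched on both strands.
Retnla: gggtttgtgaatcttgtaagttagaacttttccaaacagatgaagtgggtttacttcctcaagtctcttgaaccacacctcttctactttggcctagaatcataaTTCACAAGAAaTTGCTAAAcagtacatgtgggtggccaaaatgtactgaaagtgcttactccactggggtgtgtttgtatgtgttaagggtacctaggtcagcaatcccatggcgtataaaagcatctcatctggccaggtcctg
Chil3: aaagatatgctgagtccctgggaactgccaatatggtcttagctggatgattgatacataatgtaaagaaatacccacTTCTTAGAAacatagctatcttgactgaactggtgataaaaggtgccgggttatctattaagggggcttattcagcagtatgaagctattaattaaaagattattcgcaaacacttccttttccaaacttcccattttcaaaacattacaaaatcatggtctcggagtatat
Ccl8: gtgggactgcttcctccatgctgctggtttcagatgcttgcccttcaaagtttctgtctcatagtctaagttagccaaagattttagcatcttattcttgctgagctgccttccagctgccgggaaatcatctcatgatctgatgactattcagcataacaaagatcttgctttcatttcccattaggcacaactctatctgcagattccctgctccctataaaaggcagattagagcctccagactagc
Ccl17: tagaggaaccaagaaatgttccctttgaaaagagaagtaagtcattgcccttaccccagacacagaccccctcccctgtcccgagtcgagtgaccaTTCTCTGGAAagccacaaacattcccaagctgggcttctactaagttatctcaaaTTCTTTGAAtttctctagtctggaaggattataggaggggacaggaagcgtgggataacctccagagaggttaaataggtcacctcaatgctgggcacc
Retnla holds TTCACAAGAA at 145 to 136 bases before the start and TTGCTAAA at 134 to 127 bases, with no overlap between them. Chil3 holds TTCTTAGAA at 172 to 164 bases. Ccl17 holds TTCTCTGGAA at 154 to 145 bases and TTCTTTGAA at 99 to 91 bases. Ccl8 holds none of these 3 words in this window, and neither does Mrc1, the fifth promoter that was matched. Arg1 and Ccl24 are named only. Among 32851 mouse promoters of the same length, 5.85% hold TTCNNNNGAA, 7.02% TTCNNNGAA and 9.56% TTGCNNAA. A match therefore describes the letters and does not by itself show a binding site, and binding was not tested. The plain TATA word TATAAA, not capitalised, lies at 30 to 25 bases in Retnla and at 32 to 27 bases in Ccl8, and 12.4% of the promoters hold it.

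Arrays that stood apart touch some of these values. In untreated A/J lungs both arrays of week 6 and array 2 of week 0 carried genes of cornified skin: loricrin (Lor) read 12.74, 13.59 and 13.65 there and at most 7.40 on any other array. The sets differed: the week 6 arrays were above all 33 other arrays for 10 of 11 skin genes each, and the week 0 array for 7 of 11. Krt1 read 14.37 and 14.77 on the week 6 arrays and 9.27 on the week 0 array, within the range of the other arrays (8.62 to 9.72). At week 3, C3H NNK array 1 and untreated A/J array 2 carried the highest Saa3, an acute-phase serum amyloid (13.33 and 12.32), and the highest Prg4, the lubricin made by mesothelium and serous cavity macrophages (12.52 and 11.30). The A/J differences between NNK and untreated lungs are also given without the skin arrays (week 6 left out in all groups, and the week 0 array) and without the 2 week 3 arrays. The first setting also drops the C3H and the A/J NNK arrays of week 6, which did not carry the skin genes. In bulk lung RNA, more cells of a type and more RNA per cell cannot be told apart.

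Retnla was higher in every A/J lung after NNK than in any untreated A/J lung. At week 3 its log2 level was 12.31 and 12.11 on the A/J NNK arrays, against 10.52 and 10.75 on the untreated A/J arrays. The week 6 arrays read 12.44 and 12.13 in A/J NNK lungs, against 10.21 and 9.85 in untreated A/J lungs. Those of week 9 read 11.39 and 11.81 in A/J NNK lungs, against 9.87 and 10.36 in untreated A/J lungs. The groups were apart at each of these weeks, and the NNK arrays of weeks 3 and 6 were the highest. At week 12 the levels were 11.59 and 11.72 with NNK, against 9.74 and 9.57 untreated. The untreated A/J lungs of week 0 read 10.47 and 10.91. The lowest NNK array thus lay 0.64 above the highest untreated array of weeks 3 to 12, and all 8 NNK arrays also lay above the week 0 arrays.

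Averaged over the 4 weeks the Retnla difference in A/J was 1.83 ± 0.18 on the log2 scale (SE), or 3.55-fold. By week it was 1.58, 2.25, 1.49 and 2.0 at weeks 3, 6, 9 and 12, each ± 0.37. It was 1.69 without the skin arrays and 1.86 without the 2 week 3 arrays. Of all genes tested, 7.44% were called higher and 2.60% lower in this contrast (limma, adjusted p under 0.05), and nothing is read from these shares for genes that the contrast chose. In untreated A/J lungs the fitted line over weeks 0 to 12 fell by 1.04 ± 0.33 for Retnla over 12 weeks, a description, since these arrays are part of the same contrast. That slope was -0.86 without the skin arrays and -0.99 without the 2 week 3 arrays.

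**Figure D1:**
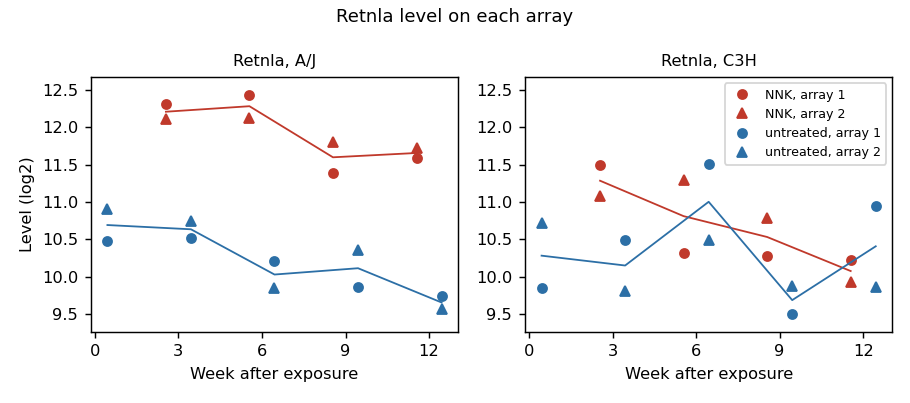
Retnla level (log2 of normalized intensity) on each array against week after exposure, A/J in the left panel and C3H in the right, with NNK in red set slightly left of untreated in blue; circles and triangles are arrays 1 and 2, and lines join group means. All 8 A/J NNK arrays sit at 11.39 or above and all untreated A/J arrays at 10.91 or below, while the C3H groups overlap.

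In C3H lungs the Retnla levels of the groups overlapped. At week 3 the C3H NNK arrays read 11.49 and 11.08, against 10.49 and 9.81 on the untreated C3H arrays, so both NNK arrays were above both untreated ones, as at week 9 and at no other week. The week 6 arrays read 10.32 and 11.30 in C3H NNK lungs, against 11.51 and 10.49 in untreated C3H lungs. Those of week 9 read 10.28 and 10.78 in C3H NNK lungs, against 9.50 and 9.88 in untreated C3H lungs. The direction was not the same at every week. At week 12 the levels were 10.22 and 9.93 with NNK, against 10.95 and 9.87 untreated, and the untreated week 0 arrays read 9.84 and 10.72. Over the 4 weeks the C3H difference was 0.36 ± 0.18 (limma adjusted p = 0.815). No C3H array carried the skin genes. Without week 6, where it was -0.19, the C3H difference was 0.55, and without the 2 week 3 arrays it was 0.31. At week 3 it was 1.14 ± 0.37 (adjusted p = 0.185), and at week 9 it was 0.85 ± 0.37 (adjusted p = 1.0).

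The A/J difference minus the C3H difference was 1.47 ± 0.26 for Retnla, 1.14 without week 6 and the week 0 array with skin genes, and 1.81 without week 3. It is given without a test because the A/J contrast chose the gene. For all genes tested, 1.13% were called in that comparison. On NNK arrays alone Retnla was 1.26 ± 0.18 higher in A/J than in C3H, whereas on untreated arrays the strain difference was -0.08 ± 0.16. Without week 6 and the week 0 array with skin genes these were 1.19 and 0.09, so the untreated difference changed sign. That setting also drops the untreated C3H arrays of week 6, which had the highest Retnla mean of the untreated groups (11.00). Without the 2 week 3 arrays the 2 strain differences were 1.31 and -0.10. At week 0, where the arrays are not part of the contrast that chose it, A/J minus C3H was 0.41 ± 0.37 (limma adjusted p = 0.451), and 0.19 without the array with skin genes.

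Ordered by group mean, the 4 A/J NNK groups held the top 4 of 18 places for Retnla (12.29 at week 6, 12.21 at week 3, 11.66 at week 12 and 11.60 at week 9), followed by C3H NNK at week 3 (11.29). The lowest was untreated A/J at week 12 (9.66). Of 17 neighbouring pairs in that order, 16 overlapped in their arrays. The exception was A/J NNK at week 3 over A/J NNK at week 12, apart by 0.38.

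Chil3 was also higher in A/J lungs after NNK, and its group means were lower in A/J than in C3H lungs of either treatment. Its log2 levels on the A/J NNK arrays were 9.10 and 8.99 at week 3, 9.31 and 9.20 at week 6, 9.18 and 8.94 at week 9, and 8.74 and 8.82 at week 12. The untreated A/J arrays read 9.34 and 8.82 at week 0, 8.58 and 8.67 at week 3, 8.60 and 8.48 at week 6, 8.74 and 8.73 at week 9, and 8.63 and 7.99 at week 12. The groups of weeks 3 to 12 met at 8.74, and the week 0 array at 9.34 lay above every A/J NNK array. The A/J difference was 0.48 ± 0.09, or 1.40-fold. It was 0.41 without the skin arrays and 0.49 without the 2 week 3 arrays.

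In C3H the lowest, median and highest Chil3 levels were 9.36, 9.59 and 9.74 over 8 NNK arrays and 9.37, 9.68 and 10.10 over 8 untreated arrays, which overlap. The C3H difference was -0.09 ± 0.09 (limma adjusted p = 0.914). Of the 7 genes, Chil3 had the untreated strain difference of greatest size. Over 5 weeks of untreated lungs A/J minus C3H was -0.96 ± 0.08, and over the NNK arrays -0.53 ± 0.09. Without the skin arrays these were -0.88 and -0.56, and without the 2 week 3 arrays -0.97 and -0.51. No A/J array of either treatment reached the C3H NNK arrays of weeks 3 to 12. The untreated C3H arrays of week 0 read 9.66 and 9.26. The lower of them lay under A/J arrays at 9.34 (untreated, week 0) and 9.31 (NNK, week 6). At week 0 the strain difference was -0.38 ± 0.17 and was not called (adjusted p = 0.121). It was -0.12 without the skin arrays. Without the other A/J array it was -0.64, where the array with skin genes is the only A/J array left at week 0. The line over the untreated C3H weeks had a slope of 0.47 ± 0.16 over 12 weeks and did not pass the test (adjusted p = 0.172), and that over the untreated A/J weeks was -0.57 ± 0.16, or -0.78 without the skin arrays.

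Of the 3 chemokines, Ccl8 was the one whose A/J groups did not overlap. On the A/J NNK arrays it read 7.93 and 8.38 at week 3, 8.09 and 7.89 at week 6, 8.13 and 8.01 at week 9, and 8.08 and 8.13 at week 12. The untreated A/J arrays read 6.95 and 6.95 at week 0, 7.36 and 7.70 at week 3, 6.92 and 7.28 at week 6, 7.23 and 6.99 at week 9, and 7.14 and 7.35 at week 12. All 8 NNK arrays were above all 10 untreated ones, by 0.19 or more. The A/J difference was 0.83 ± 0.10, or 1.78-fold, with weekly values of 0.62, 0.89, 0.96 and 0.86. It was 0.81 without the skin arrays and 0.88 without the 2 week 3 arrays. Groups of weeks 3 to 12 that do not overlap with NNK higher, as for Retnla, Ccl8 and Chil3, were seen for 0.415% of the genes tested, and the choice of members sets that count here.

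In C3H, Ccl8 was 7.93 and 8.19 on the NNK arrays of week 3, against 7.77 and 7.25 on the untreated arrays of that week. Over weeks 3 to 12 the lowest, median and highest were 7.43, 7.63 and 8.19 with NNK and 7.25, 7.51 and 7.77 untreated. The C3H difference was 0.21 ± 0.10 (limma adjusted p = 0.797) and that of week 3 was 0.55 ± 0.20 (adjusted p = 0.234). Neither passed the test, which Ccl8 entered only through its level on the A/J NNK arrays. At week 0 the strain difference of Ccl8 was -0.28 ± 0.20 (adjusted p = 0.351), for a gene that passed the minimum level through the A/J NNK arrays. Without C3H array 1 it was -0.68 and without C3H array 2 it was 0.13, each with 1 C3H array left at week 0. The A/J difference minus the C3H difference was 0.62 ± 0.14 for Ccl8 and 0.58 ± 0.12 for Chil3, both as descriptions.

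**Figure D2:**
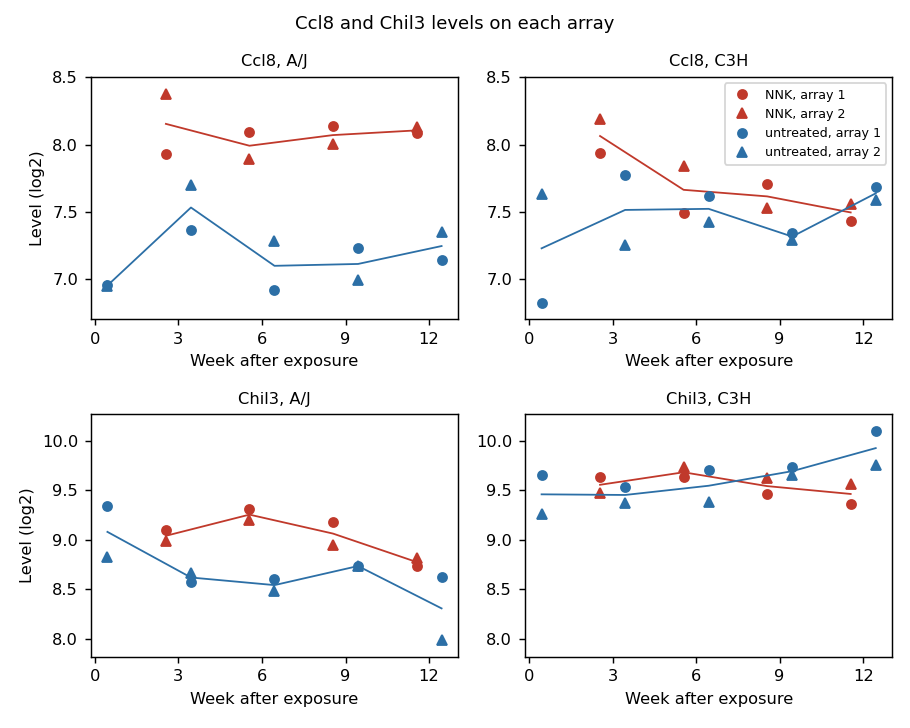
Ccl8 (top) and Chil3 (bottom) levels (log2 of normalized intensity) on each array against week after exposure, A/J left and C3H right, drawn as for Retnla. The A/J NNK arrays of Ccl8 sit at 7.89 or above and the untreated A/J arrays at 7.70 or below; for Chil3 the C3H arrays of weeks 3 to 12 sit at 9.36 or above and the A/J arrays of those weeks at 9.31 or below.

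Ccl17 and Mrc1 overlapped between NNK and untreated lungs in both strains. Ccl17, which draws Ccr4-bearing T cells, had lowest, median and highest levels of 8.49, 8.96 and 9.16 in A/J NNK lungs and of 8.44, 8.72 and 9.06 in untreated A/J lungs of weeks 3 to 12. Its A/J difference was 0.17 ± 0.11 (0.20 without the skin arrays and 0.19 without the 2 week 3 arrays) and its C3H difference 0.15 ± 0.11 (limma adjusted p = 0.899). Mrc1 stood at 10.27, 10.50 and 10.69 in A/J NNK lungs, against 10.34, 10.51 and 10.75 in untreated A/J lungs. Its A/J difference was -0.03 ± 0.05 (-0.10 without the skin arrays and -0.0062 without the 2 week 3 arrays) and its C3H difference -0.06 ± 0.05 (adjusted p = 0.884). Mrc1 was the steadiest of the 7, with a spread of 0.09 between the arrays of a group (SD over 18 groups), against 0.41 for Retnla.

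Arg1 was high on a few week 3 arrays and near 7.5 elsewhere. In C3H NNK lungs of week 3 it read 12.24 and 8.71, against 7.66 and 7.70 in untreated C3H lungs of that week. In A/J lungs of week 3 it read 7.60 and 7.56 with NNK, against 7.46 and 10.19 untreated. The next highest array was A/J NNK array 2 of week 6 at 8.03, and the other 32 arrays lay between 7.32 and 7.78. The high arrays were thus NNK-treated in C3H and untreated in A/J.

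The C3H difference at week 3 was 2.79 ± 0.67 for Arg1, or 6.94-fold (limma adjusted p = 0.110). It was 1.03 without C3H NNK array 1 and untreated A/J array 2 (adjusted p = 0.00103) and 4.56 without C3H NNK array 2 (adjusted p = 4.47e-05). Each of these leaves 1 C3H NNK array at week 3, assumed to vary like the other groups, so these p-values hold no check between C3H NNK arrays of that week. Leaving out either untreated A/J array of week 3 left it at 2.79, as these arrays are not in this difference. Its adjusted p fell there, as the gap between those 2 arrays (7.46 and 10.19) left the variance shared by all groups. The C3H NNK arrays of week 3 still lay 3.52 apart. Over the 4 weeks the C3H difference was 0.75 ± 0.34 (adjusted p = 0.771), 0.31 without the 2 arrays with high Saa3 and Prg4 (adjusted p = 0.0280), 1.19 without C3H NNK array 2 of week 3 (adjusted p = 0.0329), both again with 1 array in a group, and 0.07 without week 3 (adjusted p = 1.0). The A/J difference was -0.23 ± 0.34, was -0.37 without the skin arrays and became 0.12 once the untreated A/J array with high Arg1 was left out. Its sign thus turned with 1 array, whereas the C3H estimate kept its sign in these settings and lost most of its size without week 3.

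Ccl24, the eosinophil-drawing eotaxin-2, was dim and had its highest values on the same arrays. Untreated A/J array 2 of week 3 read 8.17 and C3H NNK array 1 of week 3 read 7.95, and the other 34 arrays lay between 7.08 and 7.75. Its A/J difference was -0.06 ± 0.09 and its C3H difference 0.01 ± 0.09, from a fit without the minimum level. Without the 2 week 3 arrays these were 0.06 and -0.04, so both signs turned, and without the skin arrays -0.07 and 0.01. Alox15, the 12/15-lipoxygenase of mouse eosinophils and serous cavity macrophages, was also highest on these 2 arrays (11.79 on the C3H NNK array and 10.95 on the untreated A/J array).

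Averaged over 9 measured markers of serous cavity macrophages, which include Gata6, Timd4, Alox15, Prg4 and Saa3, the log2 level was 11.51 on C3H NNK array 1 of week 3 and 10.39 on array 2, against 9.42 and 9.39 on the untreated C3H arrays. It was 10.90 on untreated A/J array 2 of week 3 and 10.18 on A/J NNK array 2 of week 6. These are also the 4 arrays with the highest Arg1, and in the same order, with Arg1 at 12.24, 8.71, 10.19 and 8.03 as the arrays are named here. For 10 mesothelial markers the level was 10.93 and 10.61 on the 2 arrays with the highest Arg1 and at most 10.13 elsewhere. The 2 arrays with the highest Arg1 had been singled out by Saa3 and Prg4. Both genes are in the serous cavity list and Prg4 is in the mesothelial list. The averages of both lists there are thus partly set by that choice. Timd4 was highest on C3H NNK array 1 of week 3 (9.33), followed by untreated C3H arrays of week 12 (8.91) and week 0 (8.73). Msln was highest on untreated A/J array 2 of week 3 (10.86). C3H NNK array 1 of week 3 (10.59) came after A/J NNK array 2 of week 6 (10.62). The part of pleural or other attached tissue in the Arg1 and Ccl24 values was not tested.

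**Figure D3:**
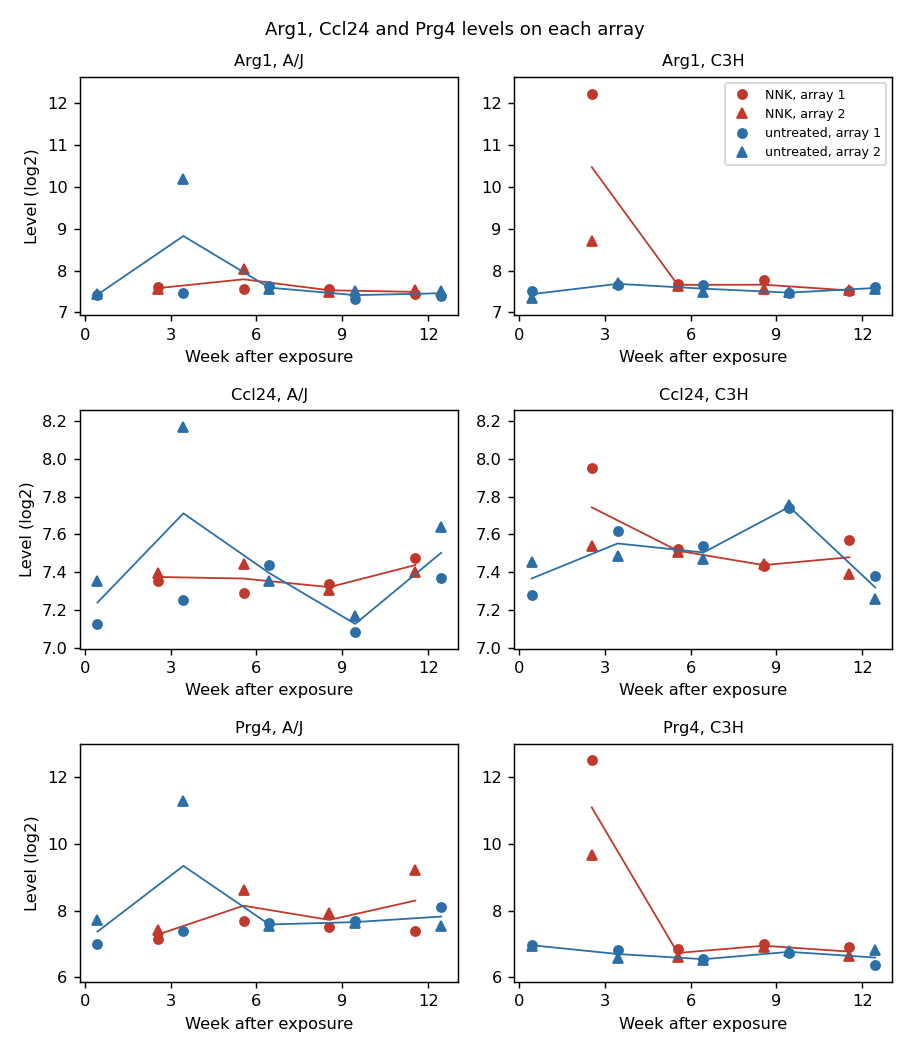
Arg1, Ccl24 and Prg4 levels (log2 of normalized intensity) on each array against week after exposure, A/J left and C3H right, drawn as for Retnla, with a scale of its own for each gene. The same 2 week 3 arrays, C3H NNK array 1 and untreated A/J array 2, are highest for all 3 genes.

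Across the tested members, none of the 6 was called for NNK in C3H over weeks 3 to 12 by limma, where 0.0803% of all genes were called. At an unadjusted p under 0.05 there were 2 members (Arg1 and Ccl8) and 936 genes, or 6.26%. Ccl8 is counted here and at week 3, although it passed the minimum level through the A/J NNK arrays in which it was high. At week 3 no member was called, where 0.0936% of all genes were, and 3 members (Retnla, Arg1 and Ccl8) and 14.2% of all genes had an unadjusted p under 0.05. No member was called at weeks 6, 9 and 12 either, where 0.0134%, 0% and 0% of all genes were, with 0, 1 (Retnla) and 1 (Chil3) members at an unadjusted p under 0.05, against 4.09%, 1.88% and 1.22% of all genes. For the strains at week 0, none of the 6 was called, where 22.9% of all genes were, and 1 (Chil3), against 35.7% of all genes, had an unadjusted p under 0.05. For the line over the untreated C3H weeks none was called either, where 0.863% of all genes were, again with Chil3 alone under an unadjusted 0.05, against 12.1% of all genes.

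**Figure D4:**
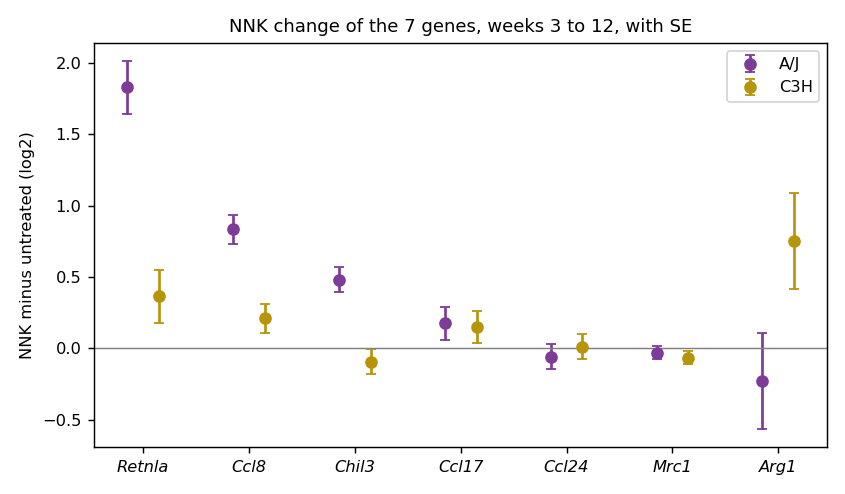
Difference between NNK-treated and untreated lungs (log2, mean of weeks 3, 6, 9 and 12) for the 7 genes, A/J left of C3H for each gene; points are the limma estimates and bars their SE. Retnla, Ccl8 and Chil3 lie at 1.83, 0.83 and 0.48 in A/J, and the C3H points of these genes lie at 0.36, 0.21 and -0.09.

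Counts of listed genes called for NNK in A/J stand beside 7.44% of all genes called higher and 2.60% called lower, and none is read as particular to its list. Of 5 testable type 2 and alarmin ligands, 1 rose: Il33, the alarmin of stressed epithelium, by 0.36 ± 0.09 (limma adjusted p = 0.0117). The lowest, median and highest Il33 levels were 10.15, 10.56 and 11.15 in A/J NNK lungs and 9.998, 10.17 and 10.54 in untreated A/J lungs, which overlap. Its call ended with array weights and with the A/J arrays alone. The estimate for Il13 itself was -0.07 ± 0.07 (adjusted p = 0.534), and 5 of the 10 listed ligands were too dim to test. Of 15 genes for the IL-4 and IL-13 receptors and their signalling, 0 were called, with a median change of -0.01. The smallest p-values among them were those of the feedback inhibitor Socs1 (0.15 ± 0.07, adjusted p = 0.189) and the phosphatase Ptpn6 (-0.08 ± 0.05, adjusted p = 0.302). That of Stat6 was -0.02 ± 0.03 (adjusted p = 0.71). The median over all genes tested was 0.01.

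Of 22 other genes of alternative activation that could be tested, 4 rose and 1 fell in A/J with NNK, beside 7.44% and 2.60% of all genes, and the median change was 0.06. Those that rose were Arg2, the mitochondrial arginase (0.59 ± 0.08, limma adjusted p = 2.83e-05), the transferrin receptor Tfrc (0.21 ± 0.05, adjusted p = 0.00544), the cholesterol 25-hydroxylase Ch25h (0.35 ± 0.09, adjusted p = 0.0150) and E-cadherin, Cdh1 (0.12 ± 0.03, adjusted p = 0.0193). The lectin Cd209a fell by 0.24 ± 0.08 (adjusted p = 0.0473). Arg2 and Tfrc act in many cell types, Ch25h also answers interferon, and Cdh1 is foremost an epithelial gene. Without week 6 and the week 0 array with skin genes, the calls of Tfrc, Ch25h and Cdh1 ended and that of Arg2 held. Markers of the same programme that were not called include Mgl2 (0.01 ± 0.10), Clec10a (0.15 ± 0.10), Clec7a (0.10 ± 0.06) and Egr2 (0.22 ± 0.11), with adjusted p from 0.197 to 0.950.

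Among 12 relatives of the 7 genes, 4 rose in A/J with NNK and 0 fell, with a median change of 0.06, beside 7.44% and 2.60% of all genes. Chia1, the acidic chitinase of the family that Chil3 belongs to, rose by 0.62 ± 0.06 (limma adjusted p = 1.14e-06). Its lowest, median and highest levels were 11.08, 11.43 and 11.64 in A/J NNK lungs, against 10.52, 10.76 and 10.99 in untreated A/J lungs, which do not overlap. Arg2, the second arginase, is in this list as well. The chitinase-like Chil1 rose by 0.14 ± 0.04 (adjusted p = 0.0256), and the resistin-like Retnlg, made by neutrophils, by 0.57 ± 0.16 (adjusted p = 0.0267). Retnlg lost its call without week 6 and the week 0 array with skin genes. Of the chemokines encoded near Ccl8 in mouse, Ccl2, Ccl7 and Ccl11 had estimates of -0.05, 0.05 and 0.17 and were not called. Ccr8, Ccr4 and Ccr3, the receptors of Ccl8, Ccl17 and Ccl24, were not among the genes tested. Of the chemokine receptors listed with them only Ccr2, a monocyte receptor for other chemokines, was tested (0.12 ± 0.07, adjusted p = 0.272).

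The counts of macrophage markers called in A/J likewise stand beside 7.44% of all genes higher and 2.60% lower. Of 14 general macrophage markers, 0 were called, with a median change of 0.02, and Fcer1g (0.24 ± 0.09, limma adjusted p = 0.0841) and Cd68 (0.16 ± 0.06, adjusted p = 0.0961) had the smallest p-values. Averaged over the 14 genes the log2 level ran between 10.15 and 10.47 over A/J NNK arrays and between 10.13 and 10.54 over untreated A/J arrays. Of 18 alveolar macrophage markers, 2 rose (Ctsk 0.31 ± 0.08, adjusted p = 0.0129, and Chil1) and 2 fell (Krt79, -0.16 ± 0.04, adjusted p = 0.00735, and Fabp1, -0.28 ± 0.08, adjusted p = 0.0233). Of 17 interstitial macrophage markers, 2 rose (Ms4a7, 0.37 ± 0.10, adjusted p = 0.0159, and Gas6, 0.15 ± 0.04, adjusted p = 0.0304) and 0 fell, and both calls ended without week 6 and the week 0 array with skin genes. No marker was called among 7 of monocytes, 4 of eosinophils, 9 of serous cavity macrophages, 10 of mesothelium, 11 of adipocytes and 7 of Th2 cells and type 2 innate lymphoid cells. None of these lists was tested as a set.

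Of 12 neutrophil markers, 5 rose in A/J with NNK and 0 fell, with a median change of 0.31, where 7.44% of all genes rose and 2.60% fell. The 4 with the smallest p were lactoferrin, Ltf (1.36 ± 0.17, limma adjusted p = 1.86e-05), histidine decarboxylase, Hdc (0.56 ± 0.08, adjusted p = 4.81e-05), lipocalin 2, Lcn2 (0.55 ± 0.10, adjusted p = 0.00123) and the collagenase Mmp8 (0.45 ± 0.12, adjusted p = 0.0230). Ltf and Lcn2 are also made by airway epithelium and Hdc by mast cells, and S100a8 and S100a9, the most abundant neutrophil transcripts, had estimates of 0.23 ± 0.15 and 0.22 ± 0.13 and were not called. Averaged over 16 measured neutrophil markers the level ran between 8.31 and 9.50 over A/J NNK arrays and between 8.11 and 8.76 over untreated A/J arrays. Its part in the Retnla values was not tested.

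Classical activation genes are switched on by interferon gamma and bacterial products. Of 15 tested, 2 rose in A/J and 0 fell, beside 7.44% and 2.60% of all genes. Their median change was 0.15, against 0.06 for the 22 other genes of alternative activation. Those 22 leave out the 7 members, so the medians do not rank the programmes, and their difference was not tested. The classical activation genes that rose were Ptgs2 (0.58 ± 0.09, limma adjusted p = 3.01e-04) and Cxcl9 (0.42 ± 0.13, adjusted p = 0.0406). The estimate for Nos2, which competes with Arg1 for arginine, was -0.08 ± 0.06 (adjusted p = 0.339). Of 11 airway epithelial genes that type 2 cytokines induce, 2 rose (the anion exchanger Slc26a4, 0.48 ± 0.12, adjusted p = 0.0114, and the mucin foldase Agr2, 0.48 ± 0.14, adjusted p = 0.0335) and 2 fell (the trefoil peptides Tff2, -0.45 ± 0.08, adjusted p = 8.63e-04, and Tff1, -0.12 ± 0.04, adjusted p = 0.0412). Clca1 and Muc5ac, the standard goblet cell genes of that response, had estimates of -0.21 ± 0.32 and -0.10 ± 0.06 and were not called. Of 14 airway epithelial markers 3 rose (Ltf, Foxj1 by 0.32 ± 0.05 and Bpifa1 by 0.85 ± 0.26), of 12 dendritic cell markers 1 rose (Fscn1, 0.23 ± 0.07) and 1 fell (Cd209a), and of 7 mast cell and basophil markers 1 rose (Hdc) and 1 fell (Gata2, -0.18 ± 0.05). Of 10 cornified skin genes 7 fell; without week 6 and the week 0 array with skin genes the estimate of Krt1 was -0.02.

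Among the listed genes named as risen or fallen in A/J, the calls of Arg2, Chia1, Foxj1, Hdc, Lcn2, Ltf, Ptgs2 and Tff2 held in all settings tried other than leaving out single arrays, and each other named call ended in 1 setting or more.

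In C3H none of the 202 distinct genes on these lists was called for NNK by limma, where 0.0803% of all genes were, and 31, against 6.26% of all genes, had an unadjusted p under 0.05. The estimates were -0.15 ± 0.09 for Il33, 0.05 ± 0.08 for Arg2 and 0.19 ± 0.06 for Chia1 (adjusted p = 0.863, 0.954 and 0.561). The difference between the strains' NNK changes was called for 11 of the 202 genes, where 1.13% of all genes were, with 8 higher in A/J: Hdc (0.58 ± 0.11, adjusted p = 0.0106), Chia1 (0.43 ± 0.09, adjusted p = 0.0202), Arg2 (0.54 ± 0.11, adjusted p = 0.0202), Lcn2, Ch25h, Chil1, Tfrc and Il33. The 3 lower in A/J were the skin genes Krt1, Krt10 and Hrnr. Hdc alone of the 8 was still called without week 6 and the week 0 array with skin genes.

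Untreated A/J lungs read lower than untreated C3H lungs for several macrophage genes, as for Chil3. Of 14 general macrophage markers, 7 were lower and 1 higher in A/J, with Cd68 at -0.76 ± 0.06 and Fcer1g at -0.74 ± 0.08 (limma adjusted p = 1.27e-10 and 3.06e-08). Of 18 alveolar macrophage markers, 10 were lower and 3 higher, led by Atp6v0d2 (-0.79 ± 0.04, adjusted p = 2.77e-13). Over all genes tested 36.3% were lower and 19.8% higher in this comparison, so the lists' shares stand beside a large background, and the part of strain sequence differences under the probes was not tested.

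Across the 18 A/J arrays the genes closest to Retnla were Bex3 (Pearson r = 0.90, Spearman rho = 0.93), the p53 target Ccng1 (r = 0.89, rho = 0.85), the mitochondrial creatine kinase Ckmt1 (r = 0.89, rho = 0.87), Ebag9 (r = 0.88, rho = 0.85) and the peroxisomal oxidase Acox2 (r = 0.87, rho = 0.78). Ccl8 stood at rank 41 of 14952 genes (r = 0.81), Chil3 at rank 206 (r = 0.71) and Ccl17 at rank 4016 (r = 0.29), while Arg1 and Mrc1 were at r = 0.04. These arrays hold both NNK and untreated lungs, and the Retnla levels of those do not overlap, so these r values join 2 separate clouds of points and share the normalization of the arrays. Without week 6 and the week 0 array with skin genes, Bex3 alone (r = 0.93) stayed among the closest genes. The others were then Fabp5 (r = 0.94), Hdc (r = 0.92), Nrg1 (r = 0.91) and Cfap52 (r = 0.90), over 13 arrays. Ccl8 stood at rank 23 (r = 0.85) and Chil3 at rank 871 (r = 0.58) in that setting.

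Across the 18 C3H arrays, where the groups overlapped, Ccl17 was the gene closest to Retnla of 14952 (r = 0.77, rho = 0.73, and r = 0.79 without the 2 arrays farthest from the median Retnla level). It was followed by Rnase2a (Ear11, an eosinophil-associated ribonuclease, r = 0.75), Basp1, Tm4sf5 and Usp1 (r = 0.75, 0.74 and 0.73). Ccl8 was at rank 10 (r = 0.69), Arg1 at rank 419 (r = 0.48), Chil3 at rank 3942 (r = 0.15) and Mrc1 at r = -0.19. When week 6 was left out, the r of Ccl17 was 0.67 and its rank 198. The closest genes were then Irf5 (r = 0.86), Fam111a (r = 0.85), P2ry6 (r = 0.85), Cox7b (r = 0.83) and Ntm (r = 0.83), over 14 arrays. None of the genes closest over all 18 arrays stayed among them.

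The difference between array 1 and array 2 of a group leaves strain, treatment and week out. Over those 18 differences the genes closest to Retnla were the antimicrobial peptide Leap2 (r = 0.84), Sec14l5 (r = 0.80), the gel-forming mucin Muc5ac (r = 0.79), Prr16 (r = 0.74) and Rnase2a (r = 0.74). Without week 6 and the week 0 array with skin genes, none of these stayed among the closest. Those were then Bfsp1 (r = 0.84), Hpgds (r = 0.80), Ccl4 (r = 0.80), Rpusd3 (r = 0.79) and Wnt10b (r = 0.79), over 13 differences. The values that follow are again over all 18 differences. Ccl17 stood at rank 424 (r = 0.41), Ccl8 at rank 661 (r = 0.36) and the other tested members between r = 0.17 and r = 0.24. Rnase2a differed by 0.66 ± 0.26 between NNK and untreated lungs in A/J and by -0.18 ± 0.26 in C3H. These correlations describe at most 18 points each, picked as the highest of 14952.

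**Figure D5:**
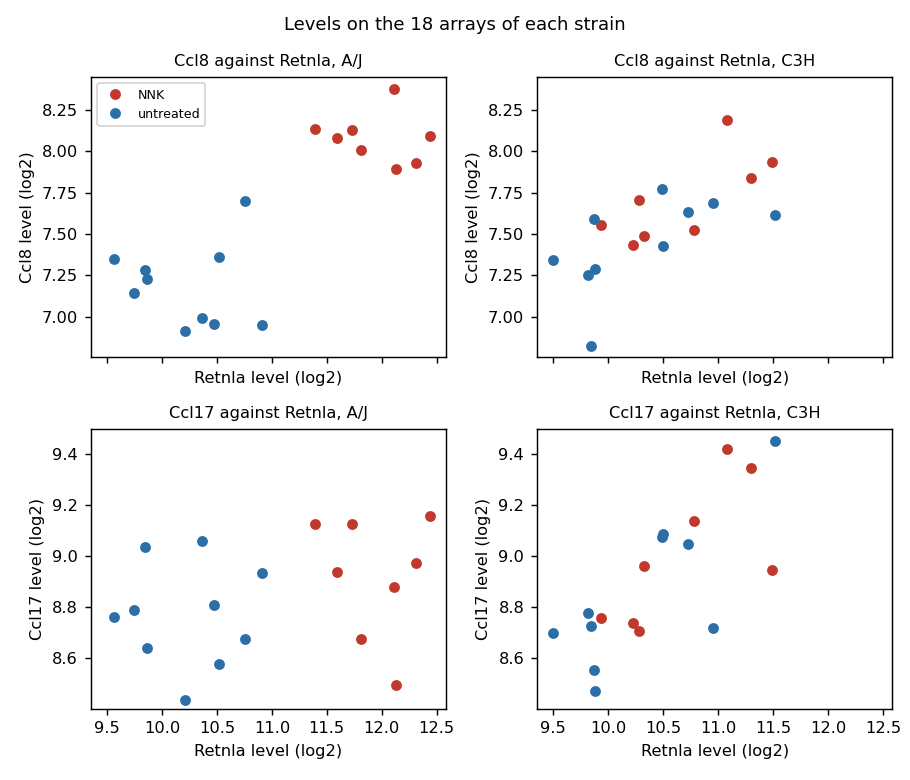
Ccl8 (top) and Ccl17 (bottom) level against Retnla level (all log2 of normalized intensity) on the 18 arrays of A/J (left) and of C3H (right), NNK in red and untreated in blue. In A/J the points form an NNK and an untreated cloud apart along Retnla; in C3H the clouds overlap and both chemokines are higher where Retnla is higher (r = 0.69 for Ccl8 and r = 0.77 for Ccl17).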

How the data were processed

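The authors deposited 1 linear intensity for each probe set and array. Per the submitters' processing notes these came from PLIER, run in Affymetrix Expression Console. Its version, settings and annotation build are not given in the sources used here. The deposited array medians lay between 285 and 347. Values were turned to log2(intensity + 16), which understates changes of dim genes, and quantile-normalized. Of 35556 probe sets, 21789 had 1 gene symbol; each of the 7 genes had 1 such probe set. A gene with several probe sets was represented by its brightest. Genes in the lowest 25% by mean were left untested, which left 14953.

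All tests came from 1 limma fit (version 3.58.1, R 4.3.3) with a mean per group, 18 residual degrees of freedom and Benjamini-Hochberg adjustment over 14953 genes at 0.05, tested on simulated data. The NNK difference is the mean of the weekly differences. Adjusted p-values printed are limma's. The 7 genes and the 21 gene lists were chosen with earlier results of these data known. From each list up to 4 genes past the threshold with the smallest p were named, or 2 where none passed; other list genes were named after their values were seen, as were Alox15 and the groups of arrays that stood apart. Array 1 of NNK and array 1 of untreated lungs were compared within each strain and week. Their deviations correlated at -0.20 to 0.22, with 2 of 8 over 0.1, so samples were not paired by number. This check could not show a batch shared across weeks or strains. Precision is limited by how few arrays there are. The genome build of RefSeq promoters is GRCm38.p6.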

Additional observations from a re-analysis of the deposited data

Results flagged for a closer look

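The highest and the lowest array of each gene, strain and treatment were checked for a gap to the other 7 or 9 arrays. Of these 56 ends, 6 stood far off. The cutoff is one that chance passes in about 1 in 20 sets of like arrays, counted by set and not by end. That rate cannot be set beside this count, because each set pools arrays of different weeks. The checks are also not independent, since Arg1 and Ccl24 stood off on the same 2 week 3 arrays. The highest Arg1 level was 12.24 among C3H NNK arrays (array 1 of week 3), 8.03 among A/J NNK arrays (array 2 of week 6) and 10.19 among untreated A/J arrays (array 2 of week 3). For Ccl24 it was 7.95 among C3H NNK arrays and 8.17 among untreated A/J arrays, on the same 2 week 3 arrays. The lowest Mrc1 level among C3H NNK arrays was 10.35 (array 2 of week 3).

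The NNK change differed between the strains, with A/J minus C3H called by limma, for Lcn2 (0.61), Hdc (0.58), Arg2 (0.54), Ch25h (0.54), Il33 (0.51), Chia1 (0.43), Tfrc (0.27) and Chil1 (0.25). Without week 6 and the week 0 array with skin genes, Hdc was the one still called.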

How the results depend on the processing

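None of the settings tried turned the A/J difference of Retnla, which ran from 1.77 to 1.89 as each array was left out. Counts of genes called moved more, and the cause was not tested. For NNK in A/J (1502 genes) there were 675 with array weights, 483 with the A/J arrays alone, 492 without week 6 and the week 0 array with skin genes, 3076 without the 2 week 3 arrays with high Saa3 and Prg4, and 900 to 2963 leaving out each array. For NNK in C3H (12) there were 31 with array weights, 41 with C3H arrays alone, 2 without week 6 and the skin array, 2 without week 3, and 4 to 30 leaving out each array. For C3H at week 3 (14) there were 25 with C3H arrays alone, 4 without week 6 and the skin array, 6 without the 2 week 3 arrays, and 0 to 425 leaving out each array. At C3H week 6 (2) there were 1 with a minimum at the 50th percentile, 127 with array weights, 4 with C3H arrays alone and 0 to 4 leaving out each array; at week 9 (0) 1 with array weights, 1 with C3H arrays alone and 0 to 1; at week 12 (0) 0 to 0. For the strain difference of the NNK change (169) there were 97 without the minimum level, 111 with array weights, 5 without week 6 and the skin array, 574 without the 2 week 3 arrays, and 49 to 1080 leaving out each array. Without week 6 and the skin array its estimates turned for Hrnr (0.080), Krt1 (0.019) and Krt10 (0.022). At week 0 (3420) there were 2253 without quantile normalization, 1903 without week 6 and the skin array, and 1372 to 3914; for the untreated C3H line (129) 85 without the minimum level, 594 with array weights, 356 with untreated C3H arrays alone, 227 without the 2 week 3 arrays, and 13 to 229; for the untreated strains (8394) 7894 to 8664.

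Of the 6 tested genes, Arg1 was called for NNK in C3H without the 2 week 3 arrays (1 member) and without C3H NNK array 2 of week 3 (1.19, adjusted p = 0.0329), so 0 to 1 members leaving out each array. Where leaving out arrays left 1 in a group, that array was assumed to vary like the other groups. At C3H week 3 it was called with array weights (1 member, adjusted p = 0.0364) and without the 2 arrays (1 member). At week 0, the strain difference of Chil3 was -0.64 without A/J array 1, where the array with skin genes is the only A/J array left. Without week 6 and the array with skin genes it was -0.12. That of Ccl8 was -0.68 without C3H array 1, for a gene that passed the minimum level through the A/J NNK arrays. Each of these fits leaves 1 array in a week 0 group, so no call is read from them. With the array number as a replicate block 1567 genes were called for NNK in A/J, 14 in C3H and 0 members in C3H, and no other count moved by over 1.5 times. Each of the 7 genes has 1 probe set, so no other probe set could be tried. Leaving out the 2 week 3 arrays, or week 3, was chosen after seeing the data.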
